A study of Homo sapiens with 36 samples.

Results

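Open chromatin was compared between BT549 cells given dexamethasone for 4 h and cells given solvent alone. BT549 is a triple-negative breast cancer cell line of mesenchymal character, and dexamethasone (DEX) is a synthetic ligand of the glucocorticoid receptor. The assay was ATAC-seq, where a transposase inserts adapters into accessible DNA, and 8 of the 36 libraries of the series carry the comparison. The 4 DEX+DMSO libraries come from cells given 500 nM DEX for 4 h with DMSO, and the 4 DMSO libraries come from cells given DMSO for 4 h without DEX. All 8 are wild type, and DMSO, the solvent of the inhibitor, is shared by both groups, while DEX was dissolved in water. The titles call the libraries of a group biological replicates of this 1 cell line, and the p-values given here measure the spread between them.

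Libraries of other groups were used to score regions chosen in these 8. The DEX+BRM014 group (4 libraries) had 500 nM DEX and 10 µM BRM014 for 4 h, and the BRM014 group (4 libraries) had BRM014 alone. BRM014 inhibits BRG1 and BRM, the ATPases of the SWI/SNF remodeler. At 2 h the siCtl_DEX and siCtl_Veh groups had control siRNA with 500 nM DEX or vehicle, and the siGATA6_DEX and siGATA6_Veh groups had siRNA against GATA6 for 72 h with the same, 3 libraries each. The siBRG1+siBRM group and its siCtl_only control had 4 libraries each and no DEX.

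Each library came as a list of called peaks. Overlapping peaks of the 8 lists on chromosomes 1 to 22 and X gave 166810 merged regions. A library was said to hold a region if any of its peaks covered at least 1 bp of it. A region held by 4 of 4 DEX+DMSO and 0 of 4 DMSO libraries is called gained, and one held by 0 of 4 DEX+DMSO and 4 of 4 DMSO libraries lost. There were 2530 gained regions, 1.52% of all regions, and 729 lost regions, 0.437% of all. These counts follow from the rule and carry no test. No peak in a list means that none was called there, not that the site was closed.

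The glucocorticoid receptor is held in the cytoplasm by chaperones until it binds its ligand, then enters the nucleus and binds DNA as a dimer at paired half-sites, which can be written as GNACA and TGTNC with 3 bases between them. Where it binds, remodelers such as SWI/SNF can move nucleosomes, and the site becomes accessible. Most of its sites lie in enhancers away from promoters. Its well known targets include feedback regulators of the receptor, inhibitors of MAP kinase signalling and inhibitors of inflammatory transcription, and in mammary epithelium it acts on survival and adhesion genes.

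No genome sequence was at hand for the regions themselves, so sequence is shown for promoters, where RefSeq gives it on GRCh38.p14. Shown here are 5 stretches, each the 250 bases before an annotated start, written 5′ to 3′ on the strand of the gene given in brackets. They are examples, in each of which a region that was gained or was stronger with DEX overlaps the stretch and covers the match in capitals. The same was true of CAVIN2, PEAK3, EIF4G1 and TTLL11, which are not shown. The capitals mark GNACA and TGTNC with 3 bases between in CAMKK1, a kinase that activates calmodulin-dependent kinases, and in CMKLR2, a receptor for chemerin. They mark its core ACANNNTGT in CIDEC, a lipid droplet protein, ACOT7, an acyl-CoA thioesterase, and TSC22D3, the gene for GILZ, a protein that dampens inflammation.
CAMKK1, chr17:3890744-3890993 (-): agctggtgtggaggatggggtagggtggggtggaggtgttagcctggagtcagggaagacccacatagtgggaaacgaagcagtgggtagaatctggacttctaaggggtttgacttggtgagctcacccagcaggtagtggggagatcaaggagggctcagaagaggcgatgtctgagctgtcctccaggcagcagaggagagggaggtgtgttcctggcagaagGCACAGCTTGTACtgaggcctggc
CIDEC, chr3:9878813-9879062 (-): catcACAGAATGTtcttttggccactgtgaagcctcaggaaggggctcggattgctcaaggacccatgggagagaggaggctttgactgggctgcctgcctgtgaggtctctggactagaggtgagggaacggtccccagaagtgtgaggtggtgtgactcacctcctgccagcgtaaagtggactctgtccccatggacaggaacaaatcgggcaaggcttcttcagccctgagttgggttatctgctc
ACOT7, chr1:6385769-6386018 (-): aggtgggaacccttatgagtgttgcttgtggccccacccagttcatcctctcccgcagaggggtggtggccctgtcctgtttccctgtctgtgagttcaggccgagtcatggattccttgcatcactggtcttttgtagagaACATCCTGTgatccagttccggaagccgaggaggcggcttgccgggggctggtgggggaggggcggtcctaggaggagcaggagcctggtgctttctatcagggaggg
CMKLR2, chr2:206213372-206213621 (-): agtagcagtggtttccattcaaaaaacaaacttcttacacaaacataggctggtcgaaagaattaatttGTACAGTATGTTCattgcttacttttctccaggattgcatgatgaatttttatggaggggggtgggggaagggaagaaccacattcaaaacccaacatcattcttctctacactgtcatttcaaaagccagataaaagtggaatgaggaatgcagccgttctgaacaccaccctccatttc
TSC22D3, chrX:107775788-107776037 (-): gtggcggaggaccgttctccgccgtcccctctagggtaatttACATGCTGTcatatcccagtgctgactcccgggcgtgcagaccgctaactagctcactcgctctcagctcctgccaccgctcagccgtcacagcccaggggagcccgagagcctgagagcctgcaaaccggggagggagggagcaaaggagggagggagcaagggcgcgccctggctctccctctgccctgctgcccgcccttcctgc

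The regions over the CAMKK1 and CIDEC stretches were gained and those over the other 3 were stronger with DEX. Promoters were searched for 3 patterns in windows of 250 bases before and 50 after a start, and each pattern reads the same on both strands. The paired half-sites, which contain ACANNNTGT, were in 0.392% of all 34961 windows and in 0.289% of the 17296 windows under any region. They were in 1 of 36 windows under a gained region (2.78%), in 6 of 144 under a stronger one (4.17%), in 0 of 15 under a lost one and in 0 of 188 under a weaker one. ACANNNTGT was in 5.36% of all windows and in 2.68% of those under any region, against 7 of 36 under gained (19.4%), 13 of 144 under stronger (9.03%), 0 of 15 under lost and 5 of 188 under weaker regions (2.66%). TGANTCA, the AP-1 pattern, was in 7.68% of all windows and 5.31% of those under any region. It was in 4 of 36 windows under gained regions (11.1%), 22 of 144 under stronger (15.3%), 2 of 15 under lost (13.3%) and 31 of 188 under weaker ones (16.5%). Windows of 1 gene can overlap, so these are shares of windows and not of genes, and a match is not a bound site.

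The libraries were alike in yield. The DEX+DMSO libraries held between 94777 and 103956 peaks and the DMSO libraries between 88348 and 98220. Reads per library were not in the files, though about 25 M read pairs each were aimed at, per the labels. The authors' fold and p at each peak follow from 2 numbers, the pileup (how many fragments or extended reads stack at the summit) and the local background the peak caller compared it with. Both could be solved for all peaks of the 8 libraries. The 1st percentile of background over the peaks of a library served as a measure of depth. It was 0.252 to 0.297 per library with DEX and 0.241 to 0.305 in DMSO. The median pileup was 13 to 14 with DEX and 14 to 16 in DMSO. Ends of mesenchymal genes such as VIM and ZEB1 held a peak at 11 of 12 markers in each DEX+DMSO library and at 10 to 11 in DMSO libraries, and luminal hormone receptor markers at 2 to 5 of 8 with DEX and 2 to 3 of 8 in DMSO, with none at ESR1 or PGR. Leukocyte markers had 3 to 4 of 8 in both groups, with PTPRC, CD14 and SPI1 held in all 8 libraries and CD3D, MS4A1 and CD79A among those at 0. Endothelial markers had 1 to 2 of 7 in both, with KDR held in all 8 and CDH5 and PECAM1 at 0, and neural markers 1 of 7 in both, which was SYP, with SOX10 at 0. An accessible gene end does not show expression, and in cell populations fewer open cells and less access per cell cannot be told apart.

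Presence alone splits the regions finely. Of the 166810 regions, 56846 were held by all 8 libraries. Just outside the rule, 1310 regions were held by 4 DEX+DMSO and 1 DMSO library and 2369 by 3 DEX+DMSO and 0 DMSO libraries. On the other side, 1209 were held by 1 DEX+DMSO and 4 DMSO libraries and 1470 by 0 DEX+DMSO and 3 DMSO libraries. Median pileup per library was 9 to 10 in gained and 8 to 9 in lost regions, against 8 to 10 in those held by 4 and 1 and 6 to 7 in those held by 3 and 0. It was 7 to 9 in those held by 1 and 4 and 6 to 7 in those held by 0 and 3. So both classes consist largely of modest peaks, and many regions narrowly missed the rule.

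**Figure D1:**
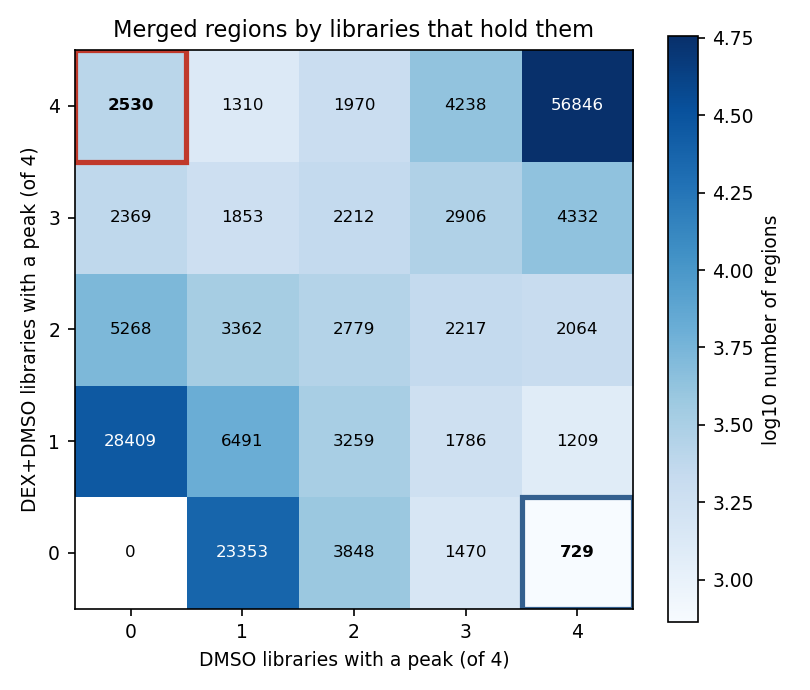
Number of regions (printed in each cell, colour on a log scale) by how many of the 4 DEX+DMSO libraries (one axis) and of the 4 DMSO libraries (other axis) held them. The gained corner holds 2530 regions and the lost corner 729, and the cells beside them hold between 1209 and 2369.

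Regions held by every library can still change in strength, so these were ranked by pileup in lists cut to the 88348 best peaks of each library. A region was called stronger when its ranks in all 4 DEX+DMSO libraries were better than in all 4 DMSO libraries, by at least 10 percentile points on average, and weaker in the reverse case. This definition was chosen after the data were seen, and it requires the groups to be apart in rank, so separation at a stronger or weaker site carries no test. Of 54682 regions held by all 8 lists, 2351 were stronger (4.3%) and 3200 weaker (5.85%), with 424 stronger and 327 weaker by 30 points or more. The median shift over all of them was -0.319 points, where a positive shift is a better rank with DEX.

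The classes differed in where they lay. Regions with no end of a protein-coding or lncRNA gene within 1000 bp, called distal, made up 91.5% of gained, 89.4% of lost, 86.1% of stronger and 89.0% of weaker regions, against 79.5% of all regions and 67.7% of those held by all 8 lists. There were 15 gained and 8 lost regions over the end of a protein-coding gene, 0.593% and 1.097% of their class, against 6.31% of all regions. Of the lost regions 27.3% and of the weaker ones 24.5% were over 100 kb from any protein-coding gene, against 15.9% of the gained, 13.1% of the stronger and 14.3% of all regions. Of the gained regions, 734 (29.0%) had another gained region within 50 kb, where 53 lost regions (7.27%) had another lost one, and the gained class is also the larger. Median width was 254 bp for gained, 203 bp for lost, 353 bp for stronger and 342 bp for weaker regions. It was 276 bp for those held by all 8 lists and 153 bp for all regions, many of which only 1 library held.

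Over whole lists the groups were close. There were 98808 ± 3831 peaks with DEX and 94069 ± 4805 in DMSO (SD, n = 4 each; exact permutation p = 0.2, adjusted 0.222 over 10 tests), and the ranges overlapped. Peaks covered 18.9 ± 0.655 Mb with DEX and 18.5 ± 1.04 Mb in DMSO (exact permutation p = 0.543). Distal peaks made up 74.0 ± 0.545% with DEX and 73.1 ± 0.473% in DMSO (exact permutation p = 0.0286, the smallest possible, adjusted 0.0408), and the libraries did not overlap. The median peak was 151 ± 1.26 bp wide with DEX and 155 ± 1.15 bp in DMSO (exact permutation adjusted p = 0.0408). Neither difference held in lists of equal length, where the distal difference was 0.335 points (adjusted permutation p = 0.286) and the width difference 1.0 bp in the other direction.

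FKBP5, a co-chaperone that lowers the receptor's affinity for its ligand, had the most gained regions of any protein-coding gene. There were 9, and 4 stronger ones, among 40 regions in the gene or within 50 kb of it, and none lost or weaker. At chr6:35722276-35722845 inside the gene the pileup was 91, 97, 87 and 76 in DEX+DMSO replicates 1 to 4, and no DMSO library listed a peak. At chr6:35725686-35726050 it was 83, 94, 84 and 74 with DEX, and at chr6:35726189-35726452 it was 97, 72, 83 and 68, again with none listed in DMSO. These 3 belong to a stretch of 5 gained regions and 1 stronger one near the outer end of the gene.

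Of the 4 stronger regions counted for FKBP5, 2 lay in it and 2 inside its neighbour ARMC12. At chr6:35688839-35689156, over an annotated inner start, the pileup was 41, 39, 42 and 36 with DEX, against 5, 9, 9 and 11 in DMSO. At chr6:35727465-35728396, near the outer end, it was 74, 66, 69 and 62 with DEX, against 8, 13, 10 and 14 in DMSO. These same values were used to call both sites stronger. The local background at the second site also differed, at 11.1 to 12.6 with DEX and 0.75 to 1.09 in DMSO, and by fold over background this site was not stronger. ARMC12 counts 6 of the 9 gained regions as its own, because both genes lie within reach of them.

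ZBTB16, a zinc-finger repressor, had 8 gained, 4 stronger and 1 lost region among 42. Inside the gene at chr11:114163936-114164403 the pileup was 87, 73, 75 and 84 with DEX, and no DMSO library listed a peak. At its lower-numbered end, chr11:114059334-114059893, it was 23, 21, 22 and 23 with DEX, and in DMSO only replicate 4 listed a peak, of 11, so this site missed the rule by 1 library. Between 8 and 10 gained regions were counted near ZBTB16 when any 1 library was left out.

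TSC22D3 had 5 gained and 4 stronger regions among 22. Over its inner start at chrX:107716806-107717223 the pileup was 45, 37, 40 and 39 with DEX, against 7, 9, 8 and 11 in DMSO. Over its outer start at chrX:107775724-107776029, the stretch printed above, it was 32, 40, 35 and 29 with DEX, against 16, 15, 16 and 20 in DMSO. Both starts are of the stronger class, and the ratio was larger at the inner one.

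DUSP1, a phosphatase that switches off MAP kinases, and DDIT4, an inhibitor of mTORC1 signalling, showed another pattern. At the DUSP1 start, chr5:172770580-172771484, the pileup was 55, 50, 57 and 49 with DEX, against 52, 41, 49 and 60 in DMSO. The groups overlapped there. Upstream at chr5:172775525-172775844 it was 55, 49, 61 and 44 with DEX, and no DMSO library listed a peak.

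At the DDIT4 start, chr10:72273501-72274245, the pileup was 170, 125, 132 and 141 with DEX, against 157, 161, 144 and 192 in DMSO, and the groups overlapped. Away from it DDIT4 had 5 gained regions. One of them, chr10:72248733-72249116, whose nearest gene is ANAPC16, had 116, 96, 122 and 97 with DEX and none listed in DMSO. It also had 1 lost region, chr10:72310822-72310987, with none listed with DEX, against 22, 24, 20 and 21 in DMSO. At the starts of both genes the pileup did not separate the groups, while peaks were gained at a distance from them.

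KLF9, a Krüppel-like factor and classic hormone target, had 4 gained and 1 stronger region among 18. At chr9:70438447-70438897, 24.015 kb outside the gene, the pileup was 68, 60, 60 and 61 with DEX and no DMSO library listed a peak. At chr9:70420773-70421076 it was 90, 76, 62 and 70 with DEX, against 36, 38, 32 and 36 in DMSO, the stronger region of this gene. Near the KLF9 start at chr9:70414346-70414514 it was 52, 56, 54 and 43 with DEX, against 39, 50, 44 and 47 in DMSO, and the groups overlapped.

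ERRFI1, a feedback inhibitor of the EGF receptor, had 2 gained and 2 stronger regions. At chr1:8004757-8005478 the pileup was 79, 71, 76 and 70 with DEX, against 19, 19, 19 and 20 in DMSO. MT2A, a metallothionein that binds zinc and copper, had no gained region. Over its start the pileup was 81, 75, 76 and 81 with DEX, against 83, 82, 81 and 90 in DMSO, and the start of its neighbour MT1M had 37, 37, 34 and 32 with DEX, against 13, 16, 15 and 14 in DMSO. So the MT1M start was stronger and the MT2A start was not, and the other 2 stronger regions near MT2A lay off its start. With any 1 library left out, or peaks of −log10 q of at least 5 alone, MT2A had 0 to 1 gained regions.

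PER1, a clock gene, and SGK1, a kinase, are also known targets, and neither had a gained region by this rule, though SGK1 had 1 among peaks of −log10 q of at least 5. PER1 had 1 weaker region, chr17:8139356-8139535, with 18, 15, 18 and 16 with DEX, against 20, 26, 29 and 31 in DMSO. SGK1 had 1 stronger region, chr6:134295944-134296540, with 23, 17, 21 and 18 with DEX, against 14, 13, 14 and 17 in DMSO, where the lowest DEX value and the highest DMSO value are equal in pileup and apart only in rank. It also had 1 lost region at chr6:134161183-134161442, with none listed with DEX, against 4, 3, 5 and 6 in DMSO.

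**Figure D2:**
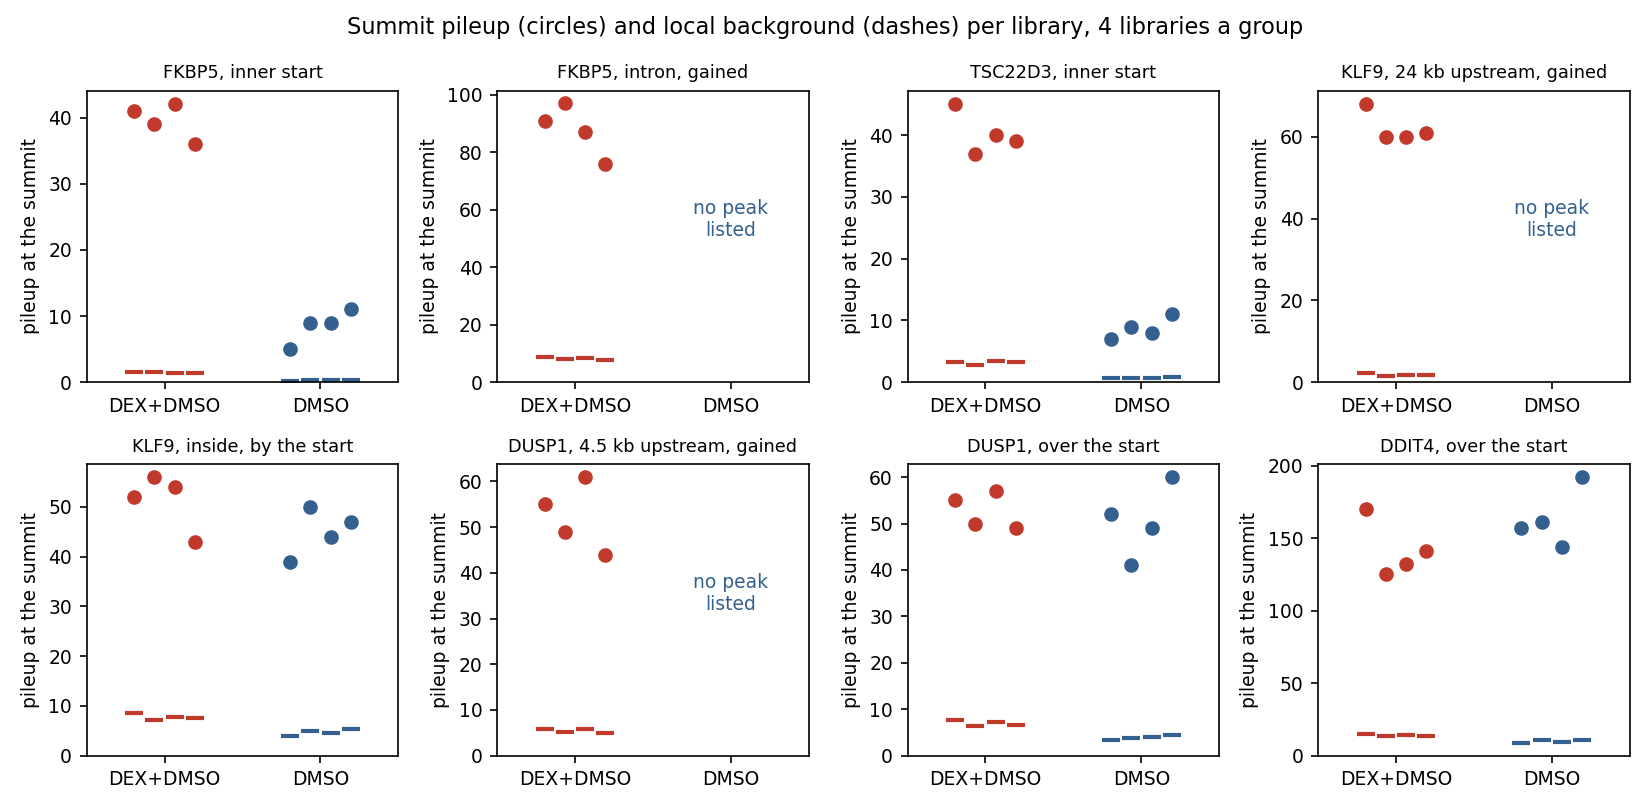
Pileup at the summit in each DEX+DMSO library (left) and each DMSO library (right) for 8 regions at receptor targets, 1 circle per library with its local background as a dash, and a note where no peak was listed. At the FKBP5 and TSC22D3 starts, which are of the stronger class, the DEX points lie above the DMSO points, and at the DUSP1 and DDIT4 starts the groups overlap.

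**Figure D3:**
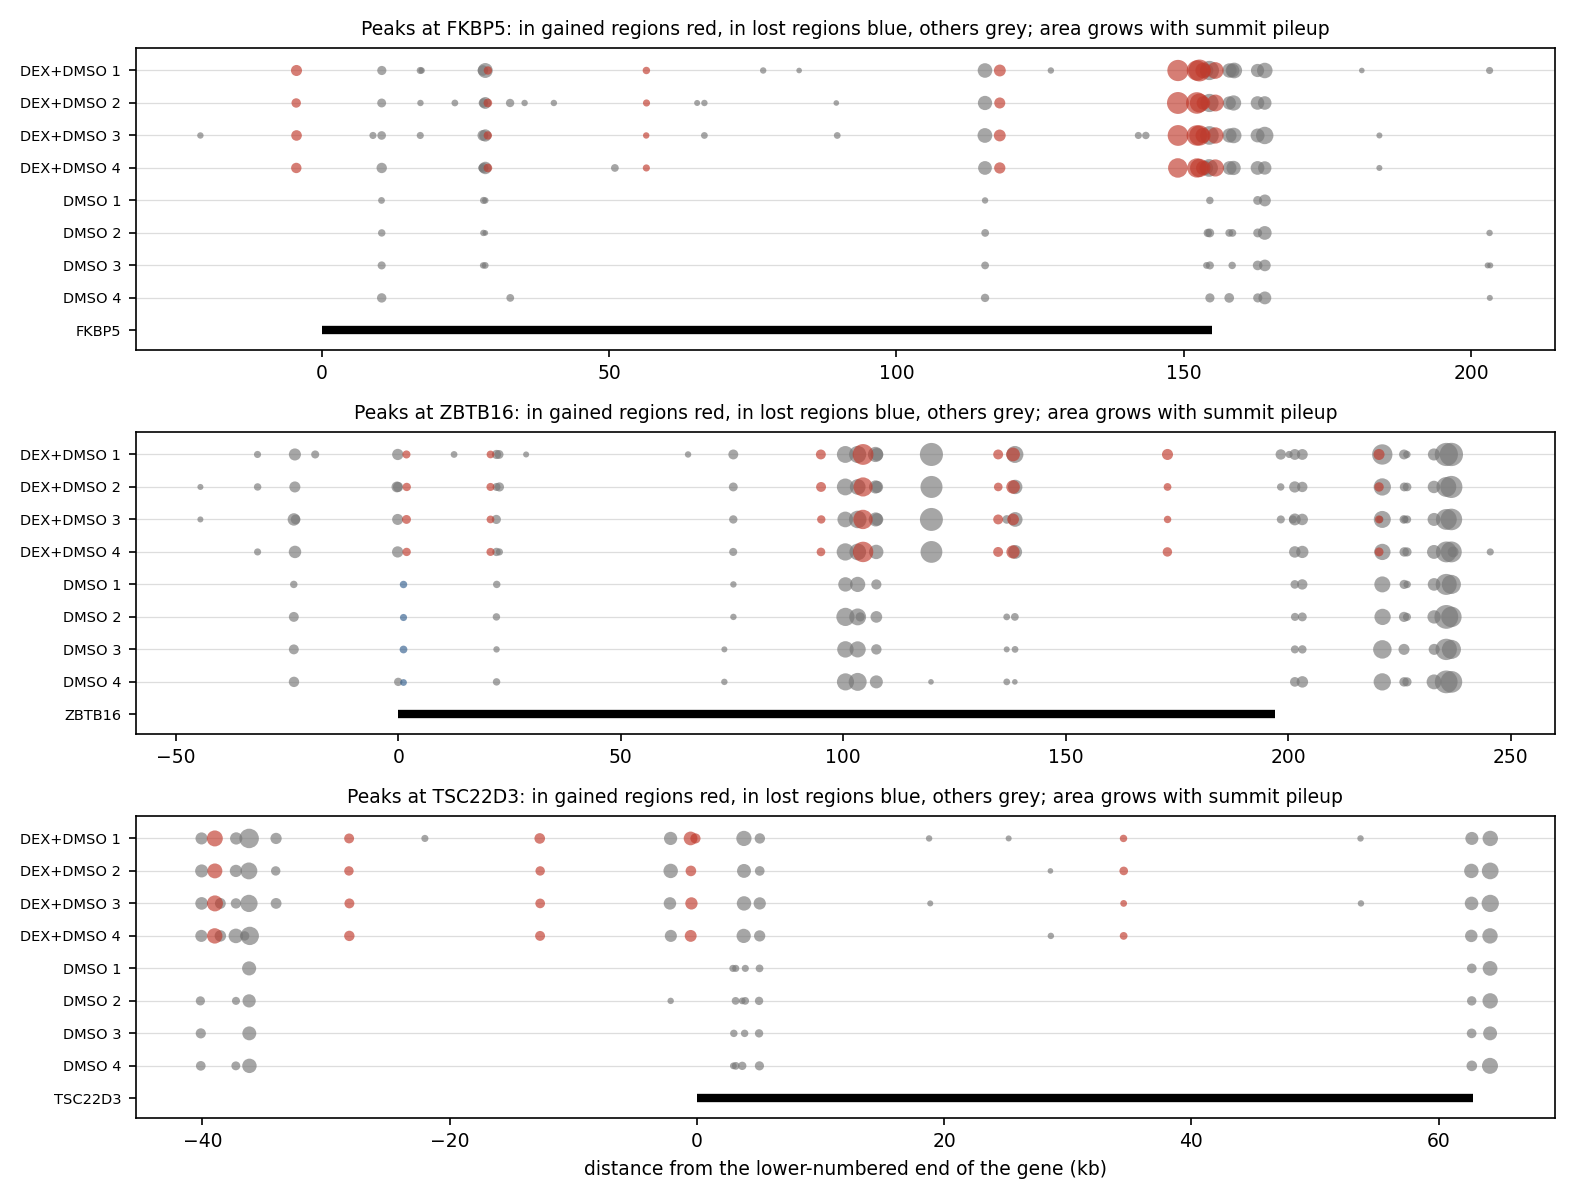
Peaks at FKBP5, ZBTB16 and TSC22D3 in the 4 DEX+DMSO libraries above the 4 DMSO libraries, by distance from the lower-numbered gene end (kb), with circle area growing with pileup and the gene as a black bar. Peaks of gained regions (red) stand in all DEX+DMSO libraries with none in DMSO, and a blue lost one is seen at ZBTB16.

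Because a caller scores a peak against the signal around it, fold over background and pileup can part. Within 10 kb of a gained region lay 2080 of the 54682 regions held by all 8 lists. There the median log2 difference (DEX+DMSO minus DMSO) was 0.00 in pileup, 0.17 in local background and -0.10 in fold, against -0.08, -0.06 and -0.04 for the 52602 regions farther away. By fold 11.8% of the near regions would be weaker, and by pileup 5.48%, against 4.25% and 5.87% of the far ones. The DUSP1, DDIT4 and MT2A starts are among the regions that were weaker by fold and not by pileup, of which there were 571. There the median log2 difference was -0.33 in pileup, 0.25 in local background and -0.48 in fold. The classes stronger and weaker therefore rest on pileup, with fold as an alternative, while the best gained and lost regions named next were ordered by fold. The 2 measures shared 1595 stronger regions, 67.8% of those by pileup and 81.0% of those by fold, and 1912 weaker ones, 59.8% and 77.0%. Pileup is not free of background either, and in the classes called by pileup both moved together. In stronger regions the median log2 difference was 0.79 in pileup and 0.50 in local background, which was higher with DEX in 91.1% of them. In weaker regions it was -0.79 and -0.55, and the background was higher with DEX in 2.16%.

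Ranked by fold within its own list, the gained region in PDE4DIP at chr1:148901228-148901394 came first among gained ones, with pileups of 112, 70, 104 and 77 with DEX. The area is duplicated in the genome, so this position is uncertain. A region inside LAMA3, a laminin chain of basement membranes, at chr18:23725676-23726192 had 77, 46, 69 and 48 with DEX. One 115 kb from PTPN1, a tyrosine phosphatase, had 88, 62, 66 and 70, and one 242 kb from PIK3R1, a regulatory subunit of PI3 kinase, had 52, 40, 45 and 45. No DMSO library listed a peak at any of these. Where a site is far from the gene, the name marks position only.

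The lost region of best rank by fold lay 993 kb from CITED2, with none listed with DEX, against 10, 15, 13 and 18 in DMSO. One in HMCN1, which encodes a large extracellular matrix protein, had 10, 15, 11 and 15 in DMSO. By pileup the exception among the best was chr6:2630933-2631412 near MYLK4, with none listed with DEX, against 56, 51, 52 and 48 in DMSO. That site was held by 4 of 4 BRM014 and 0 of 4 DEX+BRM014 libraries, but by 3 of 3 siCtl_DEX libraries at 2 h, so the 2 h libraries did not lack it.

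Gene lists were then read against all protein-coding genes. These lists were chosen with earlier results of these data known, and a gene counts when a region lies in it or within 50 kb. Of 19528 genes with any region, 2874 had a gained one (14.7%), 771 a lost one (3.95%), 2958 a stronger one (15.1%) and 2710 a weaker one (13.9%). List genes had a median of 11 to 24 regions near them and all genes 13, and a gene with more regions has more chances to count.

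Of 45 glucocorticoid receptor targets, 25 had a gained region (55.6%) and 24 a stronger one (53.3%), 4 a lost one and 4 a weaker one. Beside those described, SESN1, a stress-induced regulator of mTORC1, had 3 gained regions, PHLDA1, BIRC3 and RASD1 had 2 each, and NFKBIA, the inhibitor of NF-κB, had 2 with 1 stronger. PDK4, which restrains pyruvate dehydrogenase, had 4 stronger and 1 gained. The lost regions were near DDIT4, MAP3K6, SGK1 and ZBTB16, and the weaker ones near IGFBP1, CDKN1C, CRISPLD2 and PER1. With any 1 library left out, 25 to 28 targets had a gained region.

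Among 22 MAP kinase phosphatases and receptor kinase feedback inhibitors 4 had a gained region and 8 a stronger one, 0 a lost one and 5 a weaker one. SPRY4, an inhibitor of Ras signalling, had 26, 37, 45 and 21 with DEX at chr5:142357846-142358068, with no peak listed in DMSO. Of 23 circadian clock genes 7 had a gained region (30.4%), 1 a stronger, 1 a lost and 2 a weaker one, and TEF, a PAR bZIP factor under clock control, had 3 gained. At a stricter q, with peaks of −log10 q of at least 5 alone, 3 of the clock genes had a gained region, against 2221 of all genes, and with regions within 10 kb 4 had one, against 1452 of all genes. Of 17 Krüppel-like factors 4 had a gained region, 5 a stronger, 1 a lost and 2 a weaker one. KLF7 had 39, 30, 25 and 33 with DEX at the gained site chr2:207164297-207164479, held by 4 of 4 DEX+BRM014 libraries, and KLF4 had the lost one.

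Of 24 NF-κB and cytokine genes 1 had a gained region (4.17%), 4 a stronger one (16.7%), 1 a lost one (4.17%) and 8 a weaker one (33.3%). The weaker regions were near IL1A, IL1B, CCL20, NFKBIZ, CXCL8, CXCL1, NFKB2 and LIF, of which LIF had 3 and CXCL8, a neutrophil chemokine, had 2. The stronger ones were near CCL20, which had 2, and near CXCL8, CXCL2 and CSF3, which had 1 each. CCL20 and CXCL8 thus had regions of both classes. CXCL8 also had the lost region, chr4:73722041-73722214, with none listed with DEX, against 11, 14, 14 and 15 in DMSO. Of 14 AP-1 factors 1 had a gained region, 6 a stronger one (42.9%), 1 a lost one and 2 a weaker one. JUN had the lost region, chr1:58754210-58754368, with none listed with DEX, against 20, 17, 18 and 20 in DMSO, while FOS, JUNB, JUND, FOSL2, JDP2 and BATF2 were those near a stronger one. Leaving out 1 library gave 1 to 4 NF-κB and cytokine genes and 1 to 3 AP-1 factors near a gained region, most of each without DEX+DMSO replicate 4.

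Genes of adhesion, matrix and growth had changes in both directions. Among 24 targets of YAP and TEAD, 9 had a gained region (37.5%), 7 a stronger, 2 a lost and 12 a weaker one (50.0%). AXL, a receptor tyrosine kinase, had its lost region inside the neighbour CCDC97 with none listed with DEX, against 15, 23, 14 and 20 in DMSO. Of 40 mesenchymal and matrix genes 12 had a gained, 13 a stronger, 0 a lost and 15 a weaker region (37.5%). FBN1, a microfibril protein, had 2 gained, 4 stronger and 2 weaker, and CDH2, which encodes N-cadherin, had 13, 9, 16 and 16 with DEX at its gained region.

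Of 22 basal mammary genes 5 had a gained, 6 a stronger, 4 a lost (18.2%) and 10 a weaker region (45.5%). LAMA3 had 4 gained, 2 stronger and 1 lost, whereas TP63, a transcription factor of basal epithelium, had 1 lost and 4 weaker. The TP63 lost region had none listed with DEX, against 9, 18, 9 and 10 in DMSO. MET, the hepatocyte growth factor receptor, had 1 gained, 2 lost and 1 weaker region, and EGFR had 2 weaker ones.

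Of 25 luminal epithelial genes 4 had a gained (2 at the stricter q), 3 a stronger, 1 a lost and 5 a weaker region. Of 25 steroid and nuclear receptor genes and cofactors 6 had a gained (3 at the stricter q), 9 a stronger, 2 a lost and 6 a weaker one. THRB, a thyroid hormone receptor, led them with 2 gained and 4 stronger, and its region chr3:24139609-24140488 had 42, 42, 42 and 32 with DEX and none listed in DMSO. Of 28 SWI/SNF subunits 3 had a gained, 7 a stronger, 3 a lost and 1 a weaker region. DPF3 had 5 weaker and 3 stronger ones.

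GATA factors had 2 gained, 2 stronger, 0 lost and 0 weaker of 8, and GATA6 had 10, 10, 15 and 10 with DEX at its gained region, with none listed in DMSO. Of 34 cell cycle genes 7 had a gained (4 at the stricter q), 7 a stronger, 1 a lost and 6 a weaker region. CDK6, a G1 kinase, had 7 weaker ones and CCND3, a D-type cyclin, had a gained region with 62, 48, 51 and 57 with DEX that all 3 siCtl_Veh libraries also held at 2 h. Of 52 ribosomal protein genes 8 had a gained, 9 a stronger, 1 a lost and 3 a weaker one. The marker lists had 0 gained, 1 stronger, 1 lost and 1 weaker of 12 for leukocytes, 0, 1, 0 and 3 of 11 for endothelium and 1, 1, 1 and 1 of 10 for neural cells. With 1 library left out, 0 to 1 leukocyte, 0 to 2 endothelial and 1 to 2 neural markers had a gained region, the 2 endothelial ones without DEX+DMSO replicate 2 or 3.

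**Figure D4:**
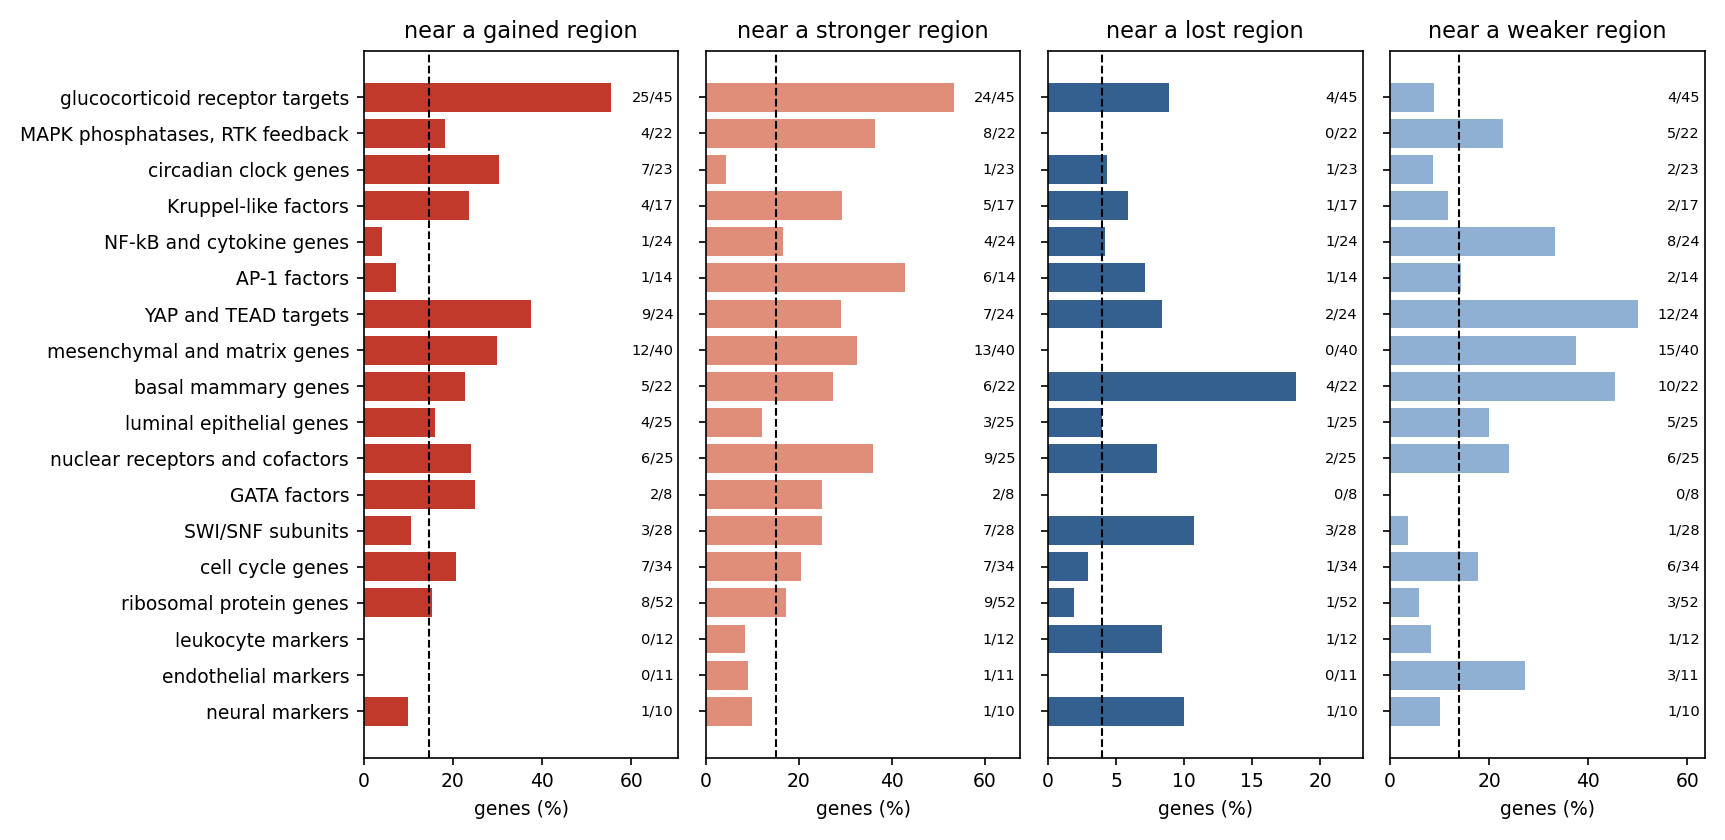
Share of each gene list (percent of its tested genes) with a gained, stronger, lost or weaker region in the gene or within 50 kb, 1 panel per class, with a dashed line at the share of all 19528 protein-coding genes. Receptor targets lie at 55.6% for gained and 53.3% for stronger regions, against 14.7% and 15.1% of all genes.

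Promoters were a small share of the change. Windows around a start were under a gained region in 20 protein-coding genes, a stronger one in 85, a lost one in 10 and a weaker one in 125. Counting genes of all types, these were 35, 132, 13 and 171 genes. Of 27195 such genes searched, 14193 had a window under any region. The CAMKK1 region had 17, 26, 21 and 18 with DEX and the CIDEC region 19, 14, 16 and 16, with no peak listed in DMSO. The CMKLR2 region had 21, 21, 30 and 24 with DEX, against 8, 8, 9 and 11 in DMSO.

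The genes with the largest pileup ratios were picked after their values were seen and are given as values only. ACOT7, whose stretch is printed above, had 69, 61, 66 and 65 with DEX, against 10, 8, 11 and 9 in DMSO, a ratio of means of 6.87, ahead of 4.65 at the inner FKBP5 start and 4.6 at the inner TSC22D3 start. KLF7 had 48, 33, 33 and 27 with DEX, against 9, 10, 13 and 14 in DMSO. Weakest relative to DMSO was GCNT2, an enzyme of blood group I antigen synthesis, with 37, 37, 31 and 34 with DEX, against 81, 104, 88 and 108 in DMSO, a ratio of 0.365. HDAC9, a histone deacetylase, had 31, 32, 31 and 32 with DEX, against 63, 76, 70 and 72 in DMSO, and COL15A1, a basement membrane collagen, had 14, 7, 10 and 9 with DEX, against 26, 23, 26 and 29 in DMSO. All of these were chosen from the stronger and weaker classes.

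The regions were next looked for in libraries the rule did not use. At 2 h with control siRNA, siCtl_DEX libraries held 89.4 ± 4.21% of the gained regions and siCtl_Veh libraries 21.3 ± 2.28% (SD, n = 3 each). With siGATA6 the shares were 87.6 ± 3.78% in siGATA6_DEX and 23.02 ± 3.77% in siGATA6_Veh. Among lost regions 69.2 ± 10.3% held a peak in siCtl_DEX and 91.9 ± 4.49% in siCtl_Veh, and 67.0 ± 5.73% in siGATA6_DEX and 83.1 ± 4.67% in siGATA6_Veh. In all 4 pairs the libraries did not overlap, each with exact permutation p = 0.1, the smallest that 3 against 3 allows. Regions held by 2 DEX+DMSO and 2 DMSO libraries, as a comparison, were held in 74.1 ± 5.56% of cases by siCtl_DEX and in 76.8 ± 2.07% by siCtl_Veh libraries.

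The gained set was thus largely present at 2 h and the lost set was mostly still there. The same presence rule at 2 h was met by 1361 gained regions in control siRNA (53.8%), by 1253 with siGATA6 and by 1050 in both (41.5%). It was met by 35 lost regions in control siRNA (4.80%), by 22 with siGATA6 and by 5 in both. There were 22 gained regions with no peak in any of the 6 DEX libraries at 2 h, while 262 lost ones (35.9%) still had a peak in all 6. The 2 h libraries held more peaks and came from siRNA-treated cells. Their 1st percentile of background was 0.492 to 0.677, against 0.241 to 0.305 in the 8 libraries at 4 h. So time cannot be told apart from these differences. The DEX effect on gained regions differed between siGATA6 and siCtl by -3.54 points (permutation p = 0.368, adjusted 0.370) and that on lost regions by 6.58 points (permutation p = 0.370, adjusted 0.370), neither past 0.05. This test takes no account of replicate numbers, and replicate 3 held the highest share in all 4 groups, for gained and for lost regions. Within replicates 1, 2 and 3 the difference was -2.69, -2.29 and -5.65 points for gained regions and 8.505, 10.3 and 0.960 points for lost ones, of 1 sign in each, where 3 pairs allow no exact sign-flip permutation p below 0.25.

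Strength was shared with 2 h in both directions, for part of the regions. Among stronger regions held in every list at 2 h with control siRNA, 55.4% of 2277 ranked higher in all siCtl_DEX than in all siCtl_Veh libraries and 1.098% lower, against 8.95% and 10.2% of the 53993 regions held by all 8 lists at 4 h and by every one of these lists at 2 h. Among weaker ones 41.4% of 3159 ranked lower and 0.823% higher. With siGATA6 54.1% of 2249 stronger regions ranked higher and 1.02% lower, and 45.1% of 3077 weaker ones ranked lower and 0.747% higher. Of the 53645 regions held by all 8 lists at 4 h and by every siGATA6 list, 9.51% ranked higher and 10.7% lower. The median rank of the stronger regions (0 is the strongest peak of a list, 100 the weakest) was 23.6 ± 0.766 in siCtl_DEX and 35.1 ± 1.12 in siCtl_Veh, and that of the weaker was 29.7 ± 0.242 and 22.9 ± 0.680 in the same groups (SD, n = 3 each; p = 0.1 by exact permutation, as low as this design goes).

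In the other direction, regions chosen at 2 h were scored here. The 2221 regions gained at 2 h in both siRNA settings were held in 69.98 ± 1.19% of cases by DEX+DMSO and in 1.51 ± 0.225% by DMSO libraries (SD, n = 4 each; adjusted exact permutation p = 0.0408). Of the 93 regions lost at 2 h in both, DEX+DMSO libraries held 6.18 ± 2.38% and DMSO libraries 29.8 ± 3.76% (exact permutation adjusted p = 0.0408). In both sets all 4 libraries of one group lay above all 4 of the other.

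Under the SWI/SNF inhibitor the gained regions were mostly without a peak. DEX+BRM014 libraries held 9.51 ± 3.13% of them and BRM014 libraries 2.05 ± 1.24% (SD, n = 4 each; exact permutation p = 0.0286, adjusted 0.0408), without overlap between groups. Without BRM014 replicate 4 the difference of 6.94 points had an adjusted exact permutation p of 0.0816. DEX+BRM014 libraries held 29.5 ± 2.68% of all regions and BRM014 libraries 28.5 ± 4.65%, against 57.1 ± 2.27% in DEX+DMSO. Of regions held by 2 DEX+DMSO and 2 DMSO libraries, they held 14.4 ± 4.32% and 12.8 ± 6.52%. So regions of both these sets were mostly without a peak there too. Of the 54682 regions held by all 8 lists at 4 h, 26019 kept a peak in every DEX+BRM014 and BRM014 list, each cut to 41026 peaks. Of the gained regions 2006 (79.3%) were in 0 of 4 DEX+BRM014 libraries and 63 (2.49%) in 4 of 4, and 47 met the presence rule with the inhibitor present.

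The best of these 47 by rank in fold were regions near KLF9, LEKR1, VAPA, ZBTB8B and SUGCT. That near KLF9 was the region 24.015 kb outside the gene described above. One 81.3 kb from VAPA, a membrane protein of the endoplasmic reticulum, had 93, 73, 92 and 79 with DEX, and one in CALD1, the actin-binding protein caldesmon, had 25, 19, 22 and 23, both in 4 of 4 DEX+BRM014 and 0 of 4 BRM014 libraries. At FKBP5 none of the 9 gained regions was in 4 of 4 DEX+BRM014 libraries, and 2 were in 3 of 4. HOXB3, a homeobox gene, had a gained region with 15, 15, 16 and 10 with DEX that met the rule under the inhibitor too. HOXB3 was also among the 10 protein-coding genes with most lost regions, ties taken in alphabetical order, as were HOXB2, HOXB4, HOXB5 and HOXB6.

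Of the lost regions, DEX+BRM014 libraries held 5.38 ± 2.08% and BRM014 libraries 9.50 ± 4.11% (exact permutation p = 0.114, adjusted 0.143), and the groups overlapped. In lists of equal length the difference was -1.75 points (exact permutation adjusted p = 0.0357), and without BRM014 replicate 4 it was -5.91 points (exact permutation adjusted p = 0.0357). Of the lost regions 588 (80.7%) were in 0 of 4 BRM014 libraries, so few could be scored.

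Among the regions that kept a peak in every list under the inhibitor, the change in strength was seen again. The median rank of 254 stronger regions was 46.9 ± 1.03 in DEX+BRM014 and 57.3 ± 0.789 in BRM014, and that of 480 weaker regions was 63.4 ± 1.67 in DEX+BRM014 and 50.0 ± 0.584 in BRM014 (SD, n = 4 each; exact permutation adjusted p = 0.0408 in both). No library of one group crossed into the other. These are 254 of 2351 and 480 of 3200, the sites still called with BRM014.

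The DEX effect on the 2221 regions gained at 2 h was compared between the inhibitor and DMSO. Of these, DEX+BRM014 libraries held 7.92 ± 2.702% and BRM014 libraries 0.518 ± 0.298%, a smaller difference than that between DEX+DMSO and DMSO by -61.1 points (permutation p = 0.00018, adjusted 0.00054). Its size depended on the length of the lists: with all lists shortened to the same length it was -9.77 points, and with peaks of −log10 q of at least 5 it was -46.3 points.

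Without DEX but with knockdown of both ATPases, siBRG1+siBRM libraries held 1.65 ± 0.786% and siCtl_only libraries 6.62 ± 0.639% of the gained regions, and 14.5 ± 6.71% and 57.2 ± 12.2% of the lost ones (SD, n = 4 each). Of all regions they held 27.6 ± 6.24% and 47.3 ± 1.56%, and of those held by 2 DEX+DMSO and 2 DMSO libraries 11.6 ± 5.55% and 36.8 ± 3.08%. The siBRG1+siBRM lists were shorter, with 37184 to 66607 peaks, against 81639 to 87609 in siCtl_only. These values carry no test here.

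**Figure D5:**
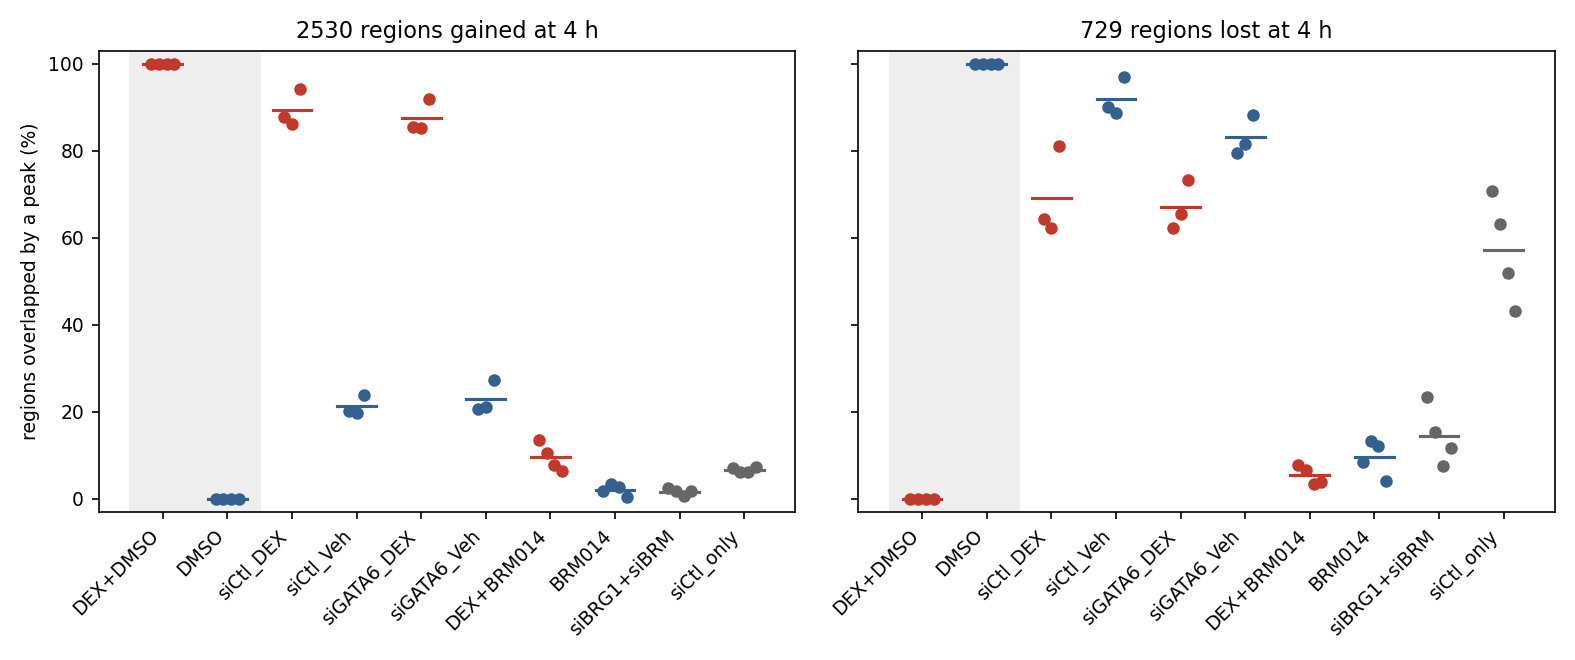
Share of gained and of lost regions that held a peak (percent of the class) in each library of all 10 groups, 1 point per library and a line at the group mean, with the groups that chose the regions shaded. Gained regions lie between 85.2 and 94.1% in the DEX libraries at 2 h and between 6.36 and 13.4% in DEX+BRM014.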

How the data were processed

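Peak lists of 36 ATAC-seq libraries were used. Per the labels' protocols, 50000 cells per sample were transposed and about 25 M pairs of 50 bp reads aimed at. The build is GRCh38 (hg38) and the tools named are MACS2, HOMER, SAMtools and bcl2fastq, per the submitters' processing notes. For the aligner, the shift of reads and the removal of duplicates, nothing is given in the sources used here. The authors deposited for each peak a fold enrichment (ratio) at the summit over local background and the −log10 p and −log10 q values, with 1 list per library.

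From the deposited fold and −log10 p, the whole pileup and the local background of every peak were solved in a Poisson model, with fold taken as (pileup + 1)/(background + 1). At 4 h all peaks were solved within a relative tolerance of 1e-05, and at 2 h at least 99.999% per library. Regions were merged, counted and tested with Python 3.11.15, NumPy 2.4.6, pandas 2.3.3 and SciPy 1.17.1. Group means were compared by two-sided exact permutation over libraries, with Benjamini-Hochberg adjustment over 10 tests of 4 against 4 and 8 of 3 against 3, and interactions by 100000 permutations of residuals. The scripts were tested on simulated data.

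The regions, lists and rules were chosen with earlier results of these data known. Named genes are 10 known receptor targets, for each list the 4 members or fewer with most gained or lost regions, the 12 best-ranked gained and lost regions, the best of those kept under BRM014, genes with most changed regions and changed gene ends. Genes given with stronger or weaker regions, and those of the promoter windows, were picked after their values were seen. Distance was taken to both ends of a gene. Stronger and weaker were defined after the data were seen. Alternatives were a −log10 q of at least 5, lists of equal length, an overlap of 50%, merging over 16 libraries, other distances, other measures of strength, a replicate block and leaving out each library. Intervals between libraries cover their spread only, and depth in reads was not used.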

Additional observations from a re-analysis of the deposited data

Results flagged for a closer look

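The median rank of the weaker regions stood apart in 1 of the 4 BRM014 libraries, at 50.9, where the other 3 lay between 49.7 and 49.8. It was the only library to stand apart among 26 groups checked, and chance alone flags about 1 group in 20.

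The DEX effect on the regions gained at 2 h in both siRNA settings was smaller with BRM014 than with DMSO, by -61.1 points in a test of that difference (permutation p = 0.00018, adjusted 0.00054). In lists of equal length the difference was -9.77 points, and BRM014 lists are shorter than DMSO lists.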

How the results depend on the processing

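Peak calls set what can be seen: a site under the caller's threshold counts as absent, pileup was compared by rank because reads per library were not used, and ranks move with the peaks around them. With 3 against 3 libraries no p can go below 0.1, and a replicate block of 4 pairs cannot go below 0.125.

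Of the results that answer a comparison, 266 kept their direction and side of the threshold or their count within 1.5 times over the alternatives, and 43 did not. Gained regions numbered 2140 in lists of equal length, 1861 at a −log10 q of at least 5 and 2782 to 3286 with 1 library left out, against 2530. Lost regions numbered 932 in lists of equal length, 670 at the stricter q and 968 to 1235 with 1 library left out, against 729, being 1139, 1235 and 1166 without DEX+DMSO replicate 1, DMSO replicate 1 and DMSO replicate 3. Leaving out a library makes the rule ask for fewer libraries. Genes near a lost region numbered 1042 to 1351 in these runs, the higher values being 1351 and 1191 without DMSO replicates 1 and 3. Among the gene lists, basal genes near a gained region reached 8 and GATA factors 4 without DEX+DMSO replicate 3, and SWI/SNF subunits 7 without DEX+DMSO replicate 2. At the stricter q 3 circadian, 4 cell cycle, 3 steroid and nuclear receptor, 2 luminal and 1 GATA factor genes had one. Within 10 kb of a gene 1452 genes had a gained and 407 a lost region, and within 100 kb 4419 and 1179.

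In lists of equal length covered length differed by -0.0514 Mb and median width by 1.0 bp, both opposite in sign to the values as listed, and the distal share by 0.335 points. The distal share differed by 0.893 points at the stricter q, 0.594 with 5000 bp from a gene end and 0.594 to 1.00 with 1 library left out, and was not past 0.05 in 7 of these 8 runs, at the stricter q, at 5000 bp or in lists of equal length. Width differed by -4.33 to -3.33 bp with 1 library left out and was not past 0.05 in 4 of 8 runs. Gained regions under BRM014 differed by 6.16 to 8.51 points and lost ones by -5.91 to -2.89 points with 1 library left out, and lost ones by -1.75 in lists of equal length. Without BRM014 replicate 4 the gained value was 6.94 and no longer passed.

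Without a minimum difference 3532 regions were stronger and 4804 weaker. By fold 1968 were stronger and 2483 weaker, and by −log10 p 2136 and 2614. Ranked by fold, the 2 h differences were -7.51 for stronger and 3.87 for weaker regions in siCtl, and -6.50 and 4.10 in siGATA6. The interaction was -46.3 points at the stricter q and -9.77 in lists of equal length.

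Deviations of same-numbered DEX+DMSO and DMSO libraries had correlations of -0.000608 to 0.00803, against -0.00762 to 0.00394 for different numbers. The samples were therefore not paired in the main tests. Such small values cannot show that same-numbered libraries were handled apart, and the labels do not say. With the replicate block (smallest exact p 0.125) none of these passed: -3.75 bp in width, 0.861 points in distal share, 68.5 and -23.7 points for the 2 h sets, 7.46 points for gained regions under BRM014, and -10.4 and 13.4 points for the ranks of stronger and weaker regions. At 2 h same-numbered libraries of different groups had correlations of 0.0112 to 0.100, positive in all 18 pairs, and others of -0.0639 to 0.0243. Pairs of replicate 3 had 0.0617 to 0.100, and replicate 3 against other numbers had -0.0639 to -0.0186. The 2 h libraries thus shared some deviation by replicate number, which the permutation of residuals takes no account of. With the replicate block the siGATA6 minus siCtl differences stayed at -3.54 and 6.58 points (exact sign-flip permutation p = 0.25 in both, the smallest possible), and with 1 library left out they were -5.72 to -1.17 and 3.11 to 12.5 points. The causes of these dependences were not tested.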
